A study of Mus musculus with 18 samples.

Results

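Untreated 3T3-F442A adipocytes at 48 h were compared with untreated cells of the same experiments at 4 h, to describe how the transcriptome of these cells drifted in culture without growth hormone (GH). The comparison uses 6 of the 18 arrays of the series, 3 titled as control at 48 h and 3 titled as control at 4 h, paired by the experiment number 1, 2 or 3 in their titles. These cells come from a line of mouse preadipocytes, which can store fat as adipocytes once differentiated in the dish, and the labels name no transgene, deletion or agent in the control groups. The series measured total RNA of this line on Affymetrix MG_U74Av2 arrays in 6 groups, control or GH for 30 min, 4 h or 48 h, with 1 array of each group in each experiment. The labels give the times but not what they are counted from, and medium, serum, insulin and days of differentiation are not given in the sources used here. Nothing in the labels says that the experiments were separate cultures, so p-values measure only the spread between these samples.

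The control 48 h array of experiment 3 needs care. Its title says 48 h, but its description says 4 h, and the title was followed. It also stood apart within the comparison. Its mean correlation with the other arrays was 0.955 on the log2 scale, against 0.963 to 0.967 for the other 5 arrays compared. Outside the comparison, the GH 48 h array of experiment 3 was at 0.946 and the 30 min control array of experiment 1 at 0.954. Among the arrays compared, the control 48 h array of experiment 3 lay nearest to the 4 h array of its own experiment. The root mean square distance was 0.524 log2 units. It lay at 0.655 and 0.639 from the 4 h arrays of experiments 1 and 2. The acute-phase genes Lcn2 and Saa3, which encode secreted inflammation-linked proteins, show how far it stood off. Lcn2 had signals of 7130, 6814 and 5842 at 4 h and of 8969, 11327 and 628 at 48 h in experiments 1, 2 and 3. Saa3 had 21537, 15842 and 7737 at 4 h and 21010, 19750 and 1867 at 48 h. For both, the 48 h array of experiment 3 was the lowest of the 6, while experiments 1 and 2 had levels near or above those at 4 h. Results are therefore also given without experiment 3. Leaving out an experiment here means leaving out its control arrays at 4 h and 48 h, while its other arrays stay in the fit (16 arrays). For the difference between the control and GH intervals, its GH arrays at 4 h and 48 h were left out too (14 arrays). RNA quality probes did not separate the groups: the ratio of 3-prime to 5-prime Actb signal was 1.99, 1.38 and 1.62 at 4 h and 2.04, 1.22 and 1.66 at 48 h.

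The arrays carried the adipocyte label well. Adipoq, the gene of the fat cell hormone adiponectin, had signals of 35187, 29083 and 27648 at 4 h and of 30212, 30107 and 34855 at 48 h. Pparg, the master regulator of fat cell formation, had 2859, 3223 and 2162 at 4 h and 2560, 2641 and 2658 at 48 h. The groups overlapped for both genes. All 28 adipocyte genes measured exceeded background on at least 1 of the 6 arrays, where background is 105.6, the highest signal of the 19 yeast and Bacillus probe sets. Their summed signal ran from 131563 to 173076 at 4 h and from 146164 to 165213 at 48 h. Of other cell types, 8 of 17 macrophage and leukocyte markers and 8 of 11 endothelial markers stayed at or below background on all 6 arrays. Ptprc, a defining leukocyte marker, was at 6 to 14.4 signal units on these arrays, and Cdh5, a defining endothelial marker, at 5.5 to 9.3. The other markers of both lists exceeded background on at least 1 array. The summed signal of the 17 macrophage and leukocyte markers ran from 2532 to 4716 at 4 h, with Cd14, given below, among the bright ones. That of the 11 endothelial markers ran from 530 to 770. Whether other cell types were present was not tested.

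Several programmes of adipocytes in culture bear on what follows. Metallothioneins are small cysteine-rich proteins that bind zinc and copper, and their genes respond to metals through the factor MTF1 and to glucocorticoids. Actin and tropomyosin genes are driven by serum response factor and its actin-sensing partner MRTF, and their expression declines as fibroblast-like cells round up into fat cells. Interferon-stimulated genes are switched on by STAT and IRF factors and can be set to a low tonic level by interferon that the cells themselves make.

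Across all genes the measured drift was small, and few transcripts could be told from the spread between the 3 experiments. Genes that did not pass the test are not shown to be unchanged. The log2 difference of 48 h minus 4 h, on the log2(signal + 25) scale, had a median of 0.03 and a standard deviation of 0.31 over 12422 probe sets, and 95 of them (0.765%) differed by more than 1. Past an adjusted p of 0.05 in limma there was 1 probe set, that of Mt2, which fell. That is 0.00805% of those tested, and no probe set passed in the upward direction (0%). At an unadjusted p under 0.05 there were 948 probe sets (7.63%), 545 higher at 48 h (4.39%) and 403 lower (3.24%). The 2 groups of 3 arrays did not overlap for 1169 probe sets (9.41%), 734 higher (5.91%) and 435 lower (3.5%). Genes other than Mt2 are therefore described by their values, as members of gene lists and as the 12 of lowest p in each direction. Those 12 were taken only from probe sets with 1 gene symbol, above background and with the same sign in 3 of 3 experiments. Probe sets with several symbols were left out, although some had lower p than genes named here. Those of lowest p were lower in each experiment, at -1.06 and -1.63 (adjusted p 0.0713 for both in limma) and -1.44 (0.115). The plot of all probe sets marks the 24 named genes, which were chosen by p and not by the size of the difference. Bulk RNA cannot tell fewer cells of a type from less RNA per cell.

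**Figure D1:**
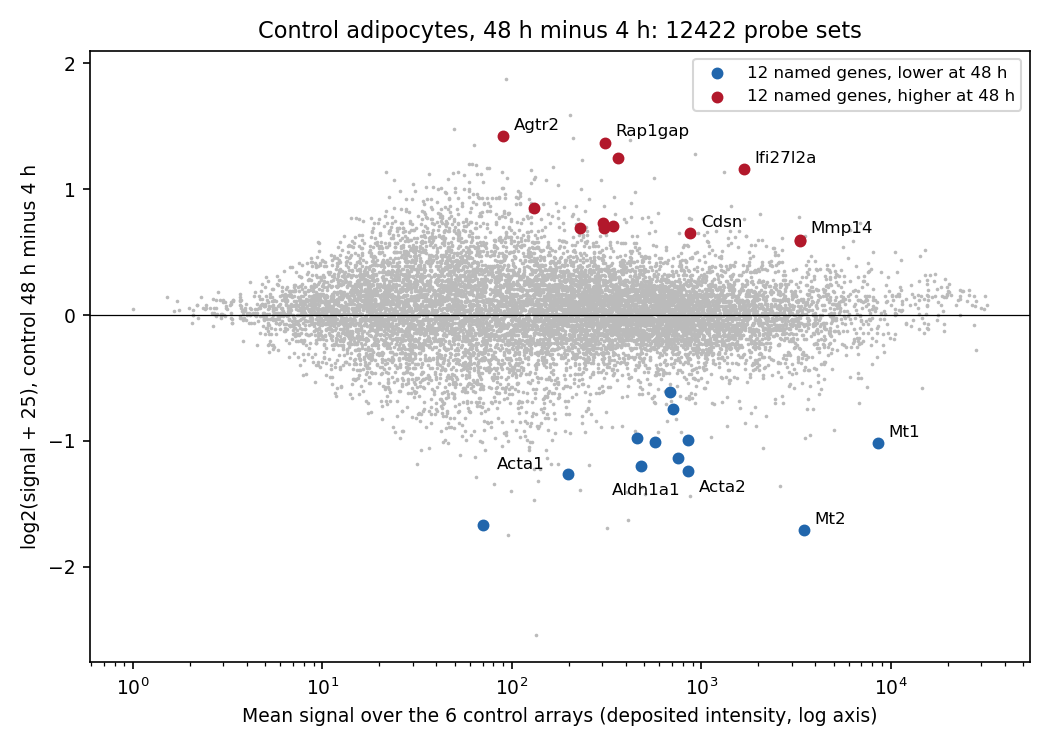
Each point is 1 of 12422 probe sets, with its mean signal over the 6 control arrays on a log axis and its difference on the log2(signal + 25) scale, control 48 h minus 4 h (mean of 3 experiments). Blue and red points are the 12 genes with the lowest p in each direction among probe sets with 1 gene symbol. The first 5 of each are named, and Mt2 at -1.71 is the single gene past the threshold.

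Mt2, a metallothionein gene, fell in every experiment. Its signal went from 7349 to 1728 in experiment 1, from 7294 to 2706 in experiment 2 and from 1508 to 465 in experiment 3. Experiment 3 was low at both times, so the groups overlapped in signal although the direction was the same in all 3 pairs. The mean was 5384 ± 3356 at 4 h and 1633 ± 1124 at 48 h (SD, n = 3). The log2 difference was -1.71 ± 0.16 over 3 experiments, with an adjusted p of 6.56e-04 in limma. The error given with a log2 difference, here and throughout, is the SE from the limma fit of all 18 arrays, whose spread is shared by all groups. It was -1.75 with an adjusted p of 0.0178 without experiment 3. The call rests on the pairing and on the shared spread of all 18 arrays: the adjusted p of Mt2 was 1 in limma without the replicate block, 0.236 with the 9 control arrays alone and 0.69 with the 6 compared arrays alone. At 30 min the control signals were 5867, 6642 and 1450, close to those at 4 h, so among the control arrays the low level was that of the 48 h arrays.

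Mt1, the neighbouring metallothionein gene, ran in parallel but did not pass the test. It had 15568, 12902 and 5845 at 4 h and 6955, 7836 and 2564 at 48 h. Each 48 h array was below its 4 h partner, and experiment 3 was again the lowest at both times. The log2 difference was -1.02 ± 0.15 with an adjusted p of 0.0713 in limma, and it passed under 5 of 14 alternative settings. Mt1 and Mt2 encode closely related proteins, and whether either probe set also reads the other transcript was not tested. The 250 bases before the start of each gene are shown because Mt2 was the gene past the threshold and Mt1 is its neighbour. Sequences are from RefSeq, build GRCm38.p6, plus strand, Mt2 at chr8:94172368-94172617 and Mt1 at chr8:94178839-94179088. Capitals mark the core of the metal response element, searched as TGCACNC or TGCGCNC on both strands.
Mt2: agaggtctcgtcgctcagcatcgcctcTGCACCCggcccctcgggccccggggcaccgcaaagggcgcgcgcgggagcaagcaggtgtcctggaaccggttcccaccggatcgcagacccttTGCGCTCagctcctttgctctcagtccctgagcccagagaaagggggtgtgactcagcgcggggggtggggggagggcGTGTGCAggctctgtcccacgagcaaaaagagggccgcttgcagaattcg
Mt1: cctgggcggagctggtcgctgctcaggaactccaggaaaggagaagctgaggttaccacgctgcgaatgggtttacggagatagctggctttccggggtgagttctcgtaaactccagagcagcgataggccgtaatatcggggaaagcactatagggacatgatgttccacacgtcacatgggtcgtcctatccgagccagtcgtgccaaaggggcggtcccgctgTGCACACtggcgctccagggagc
Mt2 held 3 matches, the farthest beginning 223 bases and the nearest 50 bases before the start, and Mt1 held 1. Of 32851 promoter windows in the table, 21.4% held at least 1 such match, so these letters alone are common.

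**Figure D2:**
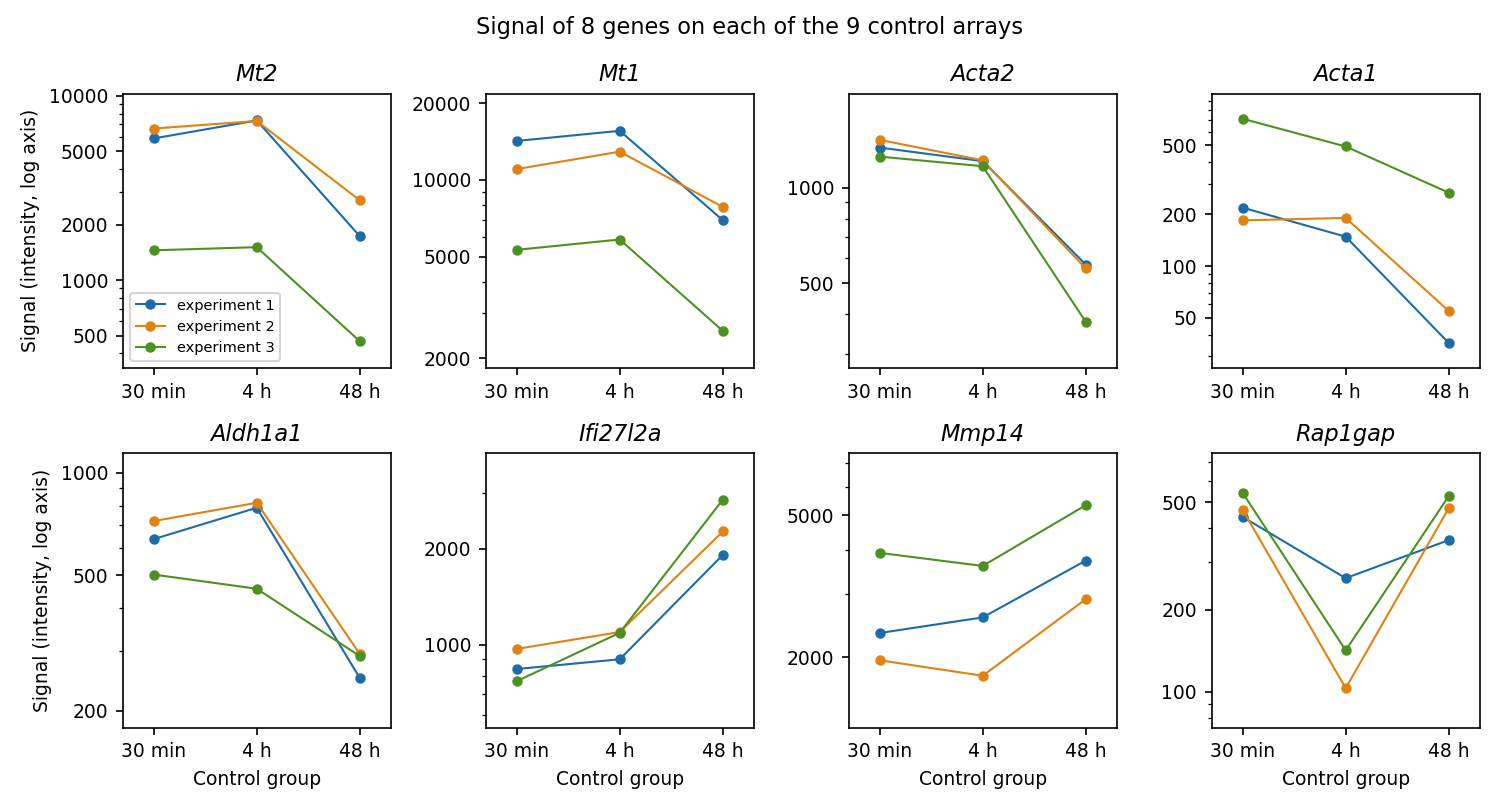
Signal (deposited intensity, log axis) of 8 genes on each of the 9 control arrays at 30 min, 4 h and 48 h, where lines join the arrays of 1 experiment. Mt2, Mt1, Acta2, Acta1 and Aldh1a1 are lower on each 48 h array than on its 4 h partner, and Ifi27l2a, Mmp14 and Rap1gap are higher; only Mt2 passed the test.

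Actin genes came next. Acta2, smooth muscle alpha-actin and a marker of contractile fibroblasts, had 1214, 1221 and 1170 at 4 h and 573, 557 and 378 at 48 h. The groups did not overlap, and the 4 h arrays agreed closely. The log2 difference was -1.24 ± 0.19 with an adjusted p of 0.0713 in limma. It was -1.07 with 0.143 without experiment 3. Acta1, skeletal muscle alpha-actin, had 148, 190 and 493 at 4 h and 35.8, 54.9 and 266 at 48 h. Here experiment 3 was high at both times, so the groups overlapped while each pair moved the same way. The log2 difference was -1.26 ± 0.21 with an adjusted p of 0.0713. These actin transcripts are similar in sequence, and reading of one by the probes of the other was not tested. Tagln, an actin-binding protein of smooth muscle, had 236, 170 and 225 at 4 h and 113, 43.2 and 123 at 48 h, without overlap (log2 difference -1.07, adjusted p 0.302 in limma).

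Of the 39 actin and serum response genes measured, 27 were lower and 12 higher at 48 h, with a median log2 difference of -0.15 against 0.02 over all 8251 genes. None passed the adjusted threshold in limma. At an unadjusted p under 0.05 there were 11 lower, against 3.58% of all genes, and 2 higher, against 4.62%. Lower in 3 of 3 experiments were 15, against 12.6% of all genes. Without experiment 3 the unadjusted counts were 7 lower (background 4.23%) and 2 higher (background 4.35%), with a median of -0.14, and without experiment 1 the median was -0.27. Tpm4, a tropomyosin, had 4464, 4484 and 4560 at 4 h and 2761, 2904 and 2796 at 48 h. The groups were far apart for their spread. Its log2 difference was -0.67 ± 0.16 with an adjusted p of 0.245. Myl9, a myosin light chain, had 151, 141 and 214 at 4 h and 106, 80.9 and 102 at 48 h, on the border of background. The muscle markers of the lists gave no common direction: 13 were higher and 6 lower, and 7 of 19 stayed at or below background on all 6 arrays.
The 250 bases before Acta1 are shown because a CArG box, the site that serum response factor binds, lies there (RefSeq, GRCm38.p6, minus strand, chr8:123894776-123895025, in capitals).
Acta1: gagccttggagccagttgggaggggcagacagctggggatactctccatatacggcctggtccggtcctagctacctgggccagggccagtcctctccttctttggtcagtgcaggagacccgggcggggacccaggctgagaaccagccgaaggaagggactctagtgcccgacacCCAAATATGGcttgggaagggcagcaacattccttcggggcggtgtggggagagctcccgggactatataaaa
The match begins 73 bases before the start. The same search of the 250 bases before Acta2 found 0 matches. Any part of such sites in the values of either gene was not tested. The search took only the strict form of the box, with no mismatch, which 1.47% of the 32851 promoter windows hold.

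Interferon-stimulated and antigen presentation genes were the list with the lowest median. Of 36 measured, 31 were lower and 5 higher at 48 h, with a median log2 difference of -0.52, and medians of -0.35, -0.63 and -0.43 in experiments 1, 2 and 3. None passed the adjusted threshold in limma. At an unadjusted p under 0.05, 20 were lower and 1 higher, where all genes gave 3.58% and 4.62%. Lower in 3 of 3 experiments were 23, against 12.6% of all genes. The 2 groups of arrays overlapped for most of the list. They did not overlap for 2 lower genes and 1 higher, where all genes gave 3.62% and 5.66%. Without experiment 3, 16 were lower and 1 higher at that p, where all genes gave 4.23% and 4.35%, with a median of -0.50. The list was written with earlier results of these data known, so these counts are a description.
The 3 members with the largest differences were Ifit1, Ifi47 and Ifi27l2a, and Ifi27l2a went the other way. Ifit1, which encodes an antiviral protein that binds viral RNA, had 563, 1312 and 255 at 4 h and 499, 218 and 75.4 at 48 h. Its difference was small in experiment 1 and large in experiment 2, and the groups overlapped (log2 difference -1.37 ± 0.43, adjusted p 0.42 in limma, and -0.82 without experiment 2). Ifi47, an interferon-inducible GTPase, had 210, 294 and 70.1 at 4 h and 92.7, 101 and 13.2 at 48 h (log2 difference -1.22 ± 0.30, adjusted p 0.276). Ifi27l2a, a small interferon-induced membrane protein, had 900, 1096 and 1090 at 4 h and 1914, 2266 and 2852 at 48 h. Its groups did not overlap, and its log2 difference was 1.16 ± 0.19 with an adjusted p of 0.0713.

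Further interferon genes were among the 12 genes named as lower. Gbp3, a guanylate-binding GTPase, had 736, 1892 and 574 at 4 h and 501, 593 and 228 at 48 h. Ifit3, a partner of Ifit1, had 1071, 1966 and 494 at 4 h and 616, 635 and 317 at 48 h. In both genes the 4 h array of experiment 2 was the highest of the 6, and that experiment gave the largest differences, -1.63 and -1.59 on the log2 scale. Ifi35 had 831, 966 and 683 at 4 h and 594, 581 and 428 at 48 h, without overlap (log2 difference -0.61 ± 0.13, adjusted p 0.207 in limma). Of the antigen presentation genes, the peptide transporters Tap1 and Tap2 were at log2 differences of -0.62 and -0.47, and Psmb9, a subunit of the immunoproteasome, was at -1.14. The class I chain genes H2-D1 and H2-K1 and their partner B2m were among the 5 that were higher, by 0.14, 0.12 and 0.15. The leukocyte marker Ptprc stayed near background, as given above, and the summed signal of the 17 macrophage and leukocyte markers ran from 2532 to 4716 at 4 h and from 2122 to 3248 at 48 h. Within that list Cd14, an endotoxin co-receptor, was at 3542, 3539 and 1396 at 4 h and at 2042, 1771 and 890 at 48 h, and Lyz2, a lysozyme gene, at 99.9, 47.9 and 114 and then at 312, 198 and 130. Their part in the interferon values was not tested.
The windows before Ifit3 and Ifit1 are shown with the core of the interferon-stimulated response element, searched as GAAANNGAAA on both strands, in capitals (RefSeq, GRCm38.p6, plus strand, chr19:34583279-34583528 and chr19:34640639-34640888).
Ifit3: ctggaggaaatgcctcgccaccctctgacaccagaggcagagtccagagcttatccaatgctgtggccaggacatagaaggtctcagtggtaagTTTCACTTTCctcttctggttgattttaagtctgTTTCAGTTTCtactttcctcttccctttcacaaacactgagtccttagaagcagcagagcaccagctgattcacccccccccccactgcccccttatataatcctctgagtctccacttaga
Ifit1: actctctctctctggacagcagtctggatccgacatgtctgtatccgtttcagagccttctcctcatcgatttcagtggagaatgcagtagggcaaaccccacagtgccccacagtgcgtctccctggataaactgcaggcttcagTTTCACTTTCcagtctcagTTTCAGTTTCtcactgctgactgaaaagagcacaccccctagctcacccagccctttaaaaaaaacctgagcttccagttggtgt
Each held 2 matches, which begin 156 and 122 bases before the start of Ifit3 and 104 and 85 bases before that of Ifit1. Of the 32851 promoter windows, 2.98% held the core.

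**Figure D3:**
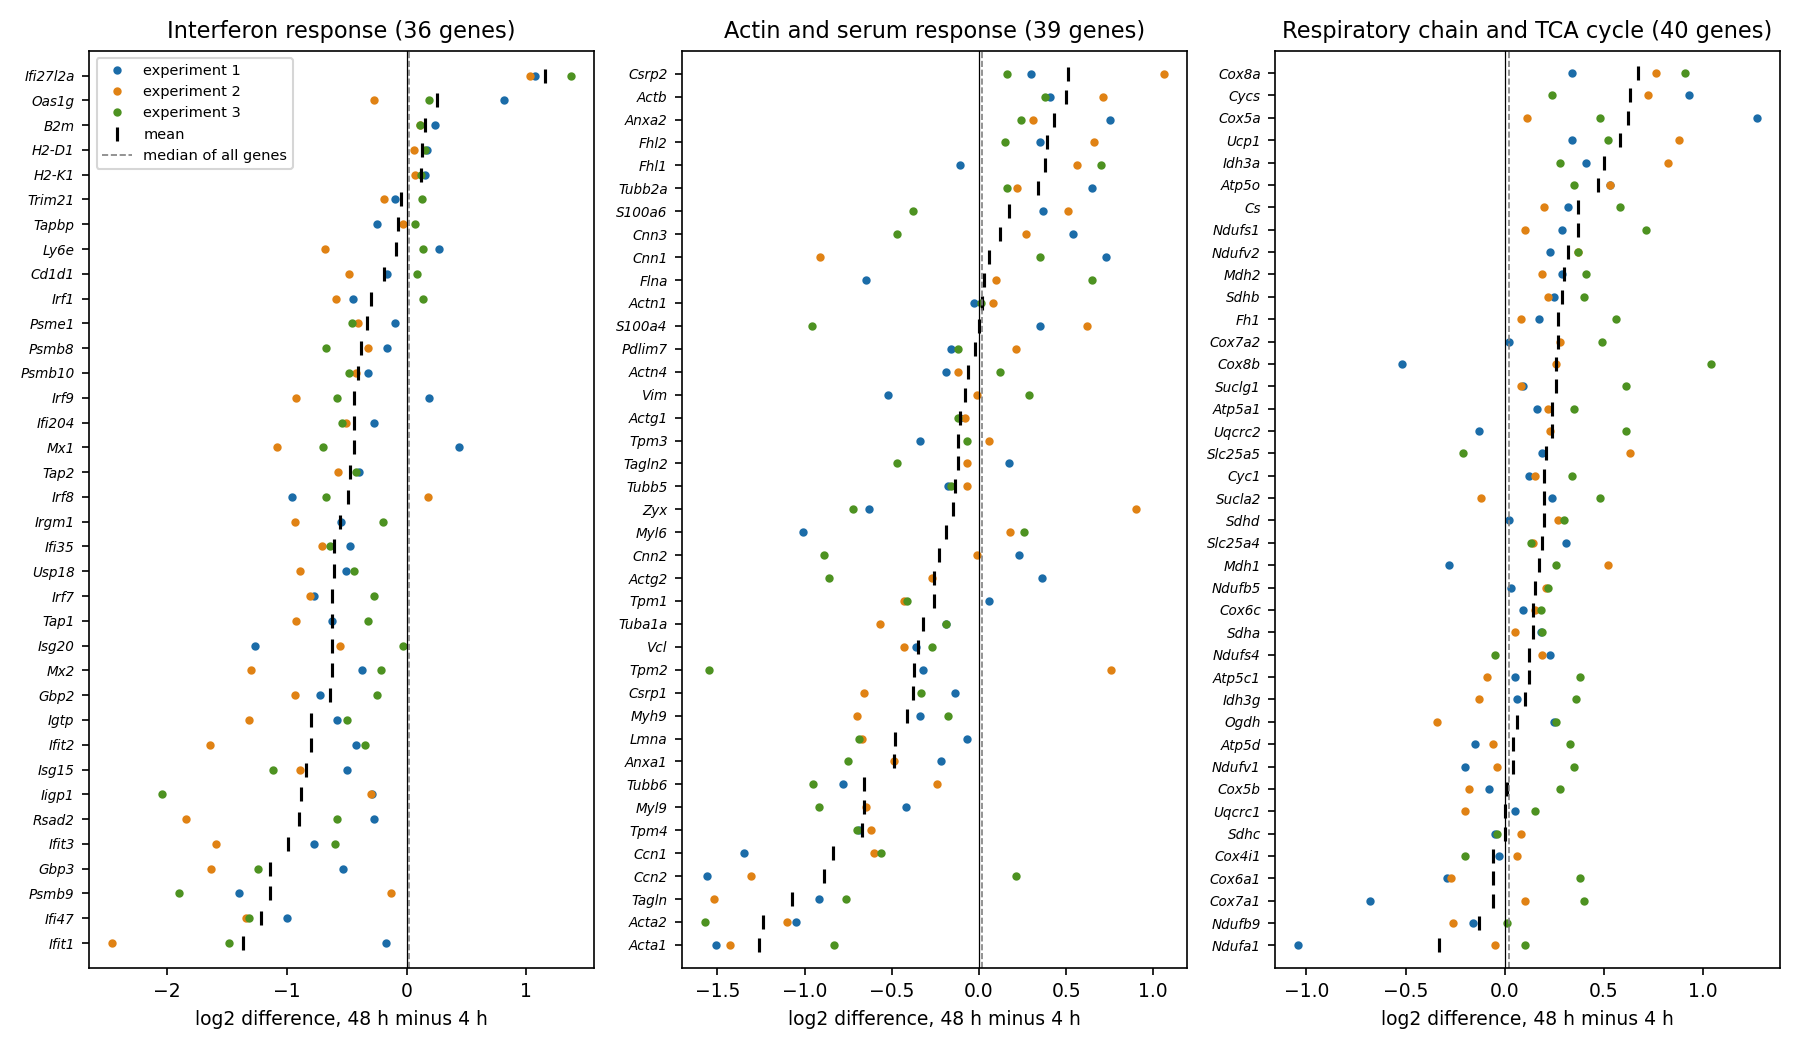
Log2 differences, control 48 h minus 4 h, of every measured member of 3 gene lists, with coloured points for experiments 1, 2 and 3, black bars for their mean and a dashed line at the median of all genes, 0.02. Of the interferon genes 31 of 36 have a mean below 0, of the actin and serum response genes 27 of 39, and of the respiratory chain and TCA cycle genes 7 of 40.

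Matrix genes lay on the other side. Of 24 collagen chains and collagen-processing genes measured, 18 were higher and 6 lower, with a median log2 difference of 0.27. None passed the adjusted threshold in limma, 5 were higher and 0 lower at an unadjusted p under 0.05 (all genes 4.62% and 3.58%), and 9 were higher in 3 of 3 experiments, against 16.3% of all genes. Without experiment 3 the unadjusted counts were 7 and 0 (all genes 4.35% and 4.23%), with a median of 0.34, and without experiment 1 the median was 0.10. Col1a1, the main chain of fibrillar collagen, had 4564, 3758 and 5387 at 4 h and 7079, 5130 and 10615 at 48 h. Each 48 h array was above its partner, with a narrow overlap between groups, and the log2 difference was 0.68 ± 0.19 (adjusted p 0.349 in limma). Col11a1, a minor fibrillar chain, had 236, 111 and 307 at 4 h and 557, 181 and 675 at 48 h, the largest difference of the list at 0.94. The groups did not overlap for 0 of the 24 genes in either direction, against 5.66% (higher) and 3.62% (lower) of all genes. P4ha1, a prolyl hydroxylase needed for stable collagen helices, is not counted in this list. It had 296, 217 and 360 at 4 h and 726, 477 and 482 at 48 h, without overlap (0.89 ± 0.29, adjusted p 0.446 in limma).

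Of the 42 other matrix, protease and inhibitor genes measured, 27 were higher and 15 lower, with a median of 0.19. At an unadjusted p under 0.05, 6 were higher and 3 lower, where all genes gave 4.62% and 3.58%. Without experiment 3 those counts were 9 and 2, where all genes gave 4.35% and 4.23%. Mmp14, a membrane-bound metalloproteinase that cuts collagen, had 2585, 1773 and 3605 at 4 h and 3733, 2910 and 5340 at 48 h. Every pair moved the same way by a like amount (0.60 ± 0.11, adjusted p 0.115 in limma). The large proteoglycan Vcan had 787, 631 and 1656 at 4 h and 1994, 1038 and 2549 at 48 h (0.87 ± 0.22, adjusted p 0.3). Has2, which makes hyaluronan, passed without experiment 3, at a log2 difference of 1.23 with an adjusted p of 0.0498, and was at 0.77 with 0.414 over all 3 experiments. The 3 genes of this list with the largest differences were all lower: Mgp, a calcification inhibitor, at -1.39, the metalloproteinase Mmp11 at -1.36 and the adhesion-modulating glycoprotein Tnc at -1.04. Mgp rested on 1 array: it had 366, 279 and 302 at 4 h and 172, 245 and 15.8 at 48 h, and its difference was -0.58 without experiment 3. Tnc rested on experiment 1, and its difference was -0.43 without it. The summed signal of the 22 preadipocyte and fibroblast markers ran from 19225 to 35821 at 4 h and from 25000 to 28775 at 48 h. Of these markers 17 were higher and 5 lower, with a median log2 difference of 0.11, or 0.31 without experiment 3, and of 0.34, 0.25 and 0.00 in experiments 1, 2 and 3. Their part in the matrix values was not tested.

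Genes of the respiratory chain and the TCA cycle were slightly higher. Of 40 measured, 33 were higher and 7 lower, and the median was 0.20. In 3 of 3 experiments 21 were higher and 0 lower, where all genes gave 16.3% and 12.6%. The medians of experiments 1, 2 and 3 were 0.11, 0.15 and 0.35, so that of experiment 3 was the largest. None passed the adjusted threshold in limma, and 9 were higher and 0 lower at an unadjusted p under 0.05, where all genes gave 4.62% and 3.58%. Without experiment 3 those counts were 4 and 0, where all genes gave 4.35% and 4.23%, with a median of 0.12. Atp5o, a subunit of the ATP synthase, had 3196, 2733 and 3698 at 4 h and 4627, 3952 and 4712 at 48 h, without overlap (0.47 ± 0.14, adjusted p 0.407). Idh3a, a subunit of isocitrate dehydrogenase, had 791, 622 and 957 at 4 h and 1057, 1116 and 1170 at 48 h (0.50 ± 0.16, adjusted p 0.428). Cytochrome c, Cycs, had 1335, 1153 and 1517 at 4 h and 2569, 1914 and 1794 at 48 h (0.63 ± 0.25, adjusted p 0.571). The other 2 of the 3 largest differences, Cox8a at 0.67 and Cox5a at 0.62, came from probe sets whose group means lay below background.

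Oxidative stress and xenobiotic defence genes split. Of 39 measured, which include Mt1 and Mt2, 17 were higher and 22 lower, with a median of -0.12, or -0.03 without experiment 3. At an unadjusted p under 0.05, 5 were higher and 10 lower, against 4.62% and 3.58% of all genes. Aldh1a1, which makes retinoic acid from retinaldehyde, had 789, 816 and 456 at 4 h and 249, 293 and 289 at 48 h, without overlap (-1.20 ± 0.22, adjusted p 0.115 in limma). Its other probe set lay near background, with means of 85.1 and 93.7. Txn1, thioredoxin, had 7696, 8558 and 7410 at 4 h and 5891, 5789 and 5025 at 48 h, also without overlap (-0.50 ± 0.15, adjusted p 0.388). The haem oxygenase gene Hmox1 was at -0.44 and the mitochondrial superoxide dismutase gene Sod2 at -0.48. Of the glutathione transferase genes, Gsta4 and Gstm1 had higher values at 48 h without passing the test (adjusted p 0.388 and 0.407), and the Gstm1 probe set can read related transcripts. Gsta4 had 307, 202 and 428 at 4 h and 660, 433 and 524 at 48 h, and Gstm1 had 6150, 5736 and 7681 and then 8107, 8262 and 9566.

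The adipocyte genes showed no common drift. Of 28 measured, 11 were higher and 17 lower, with a median of -0.04, and 2 in each direction were at an unadjusted p under 0.05 (all genes 4.62% higher and 3.58% lower). The experiments disagreed, with medians of -0.17, -0.19 and 0.33, and without experiment 3 the unadjusted counts were 0 higher and 5 lower (all genes 4.35% and 4.23%). Cebpd, an early transcription factor of fat cell formation, had 2820, 2844 and 731 at 4 h and 1761, 1714 and 311 at 48 h, lower in each pair (-0.86 ± 0.34, adjusted p 0.555 in limma). Pck1, which feeds glycerol synthesis for triglyceride storage, had 220, 102 and 196 at 4 h and 190, 132 and 607 at 48 h, and its difference of 0.55 came down to 0.06 without experiment 3. Sncg had 1307, 2061 and 2751 at 4 h and 1935, 2702 and 3918 at 48 h (0.48 ± 0.17, adjusted p 0.515).

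Sterol synthesis and uptake genes had the highest median, 0.36 over 17 genes measured, with 13 higher and 4 lower, but experiment 3 differed. Its median was -0.17, against 0.58 and 0.36 in experiments 1 and 2. The list's median was 0.10 without experiment 1, 0.21 without experiment 2, 0.40 without experiment 3 and 0.14 with a pseudocount of 100. At an unadjusted p under 0.05, 3 were higher and 0 lower, where all genes gave 4.62% and 3.58%. Without experiment 3 those counts were 6 and 0, where all genes gave 4.35% and 4.23%. Hmgcs1, an early enzyme of the mevalonate pathway, had 900, 918 and 2988 at 4 h and 2057, 1894 and 3455 at 48 h (0.80 ± 0.22, adjusted p 0.32 in limma). Idi1, an isomerase of the same pathway, had 369, 295 and 1426 at 4 h and 956, 556 and 1576 at 48 h (0.77 ± 0.25, adjusted p 0.456). Sqle, which makes squalene epoxide, had 415, 335 and 1925 at 4 h and 1118, 844 and 1501 at 48 h. All 3 genes were already high at 4 h in experiment 3, and Sqle was lower there at 48 h.

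The remaining genes of lowest p belong to no single programme. Among those lower at 48 h, Lxn, an inhibitor of carboxypeptidases, had 452, 583 and 826 at 4 h and 297, 337 and 254 at 48 h. Rgcc, a regulator of the cell cycle, had 791, 1134 and 434 at 4 h and 394, 344 and 314 at 48 h. Neither gene's groups overlapped, and the log2 differences were -0.98 and -1.01. Mkrn1, a ubiquitin ligase, was at -0.75 on its brightest probe set, while a second probe set with means of 391 and 418 gave 0.09. Sox17, a transcription factor of endoderm and vessel walls, was dim, at 130, 149 and 84.1 at 4 h and 14.5, 27.3 and 19.4 at 48 h, and its second probe set, below background, gave 0.30.
Among those higher, Rap1gap, which switches off the small GTPase Rap, had 262, 103 and 142 at 4 h and 362, 475 and 526 at 48 h. Its 30 min levels were 441, 469 and 541, so the 4 h arrays were the low ones, and Rap1gap was the gene of the 12 higher whose 48 h mean did not exceed that at 30 min. Akap12, a scaffold that anchors protein kinase A, had 150, 183 and 254 at 4 h and 352, 392 and 842 at 48 h (1.25 ± 0.28, adjusted p 0.207 in limma). Agtr2, an angiotensin II receptor, had 16, 5.5 and 118 at 4 h and 152, 67.7 and 182 at 48 h. Agtr2 passed without experiment 3, at 1.86 with an adjusted p of 0.0178, and its 4 h signals there were far below background. The transcription factor gene Ebf2 had 124, 175 and 215 at 4 h and 276, 259 and 324 at 48 h, without overlap (0.69 ± 0.13, adjusted p 0.124 in limma). Its 30 min levels were 240, 247 and 310, so for Ebf2 too the 4 h arrays were the low ones. The log2 difference of 48 h minus 30 min was 0.10. The others were Cdsn at 0.65, Meis1 (from a probe set that can read related transcripts) at 0.85, Anxa5 at 0.59, Cpq at 0.71, Stt3a at 0.73 and Matn2 at 0.69. Of the 12 lower genes the groups did not overlap for 7 (3.62% of all genes), and of the 12 higher for 8 (5.66%), in the contrast that chose them. Compared with the 30 min controls, all 12 lower genes were lower at 48 h and 11 of the 12 higher genes were higher. Both comparisons share the 48 h arrays, on whose values these genes were chosen, so the agreement is not separate evidence.

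Medians of further lists are in the plot of list medians. The chemokine, cytokine and acute-phase genes had a median of -0.15, with 25 of 38 lower and 13 higher. It was -0.09, 0.05 and -0.17 in experiments 1, 2 and 3, and 0.02 without experiment 3. Immediate early genes had a median of 0.01 over 34 genes against 4 h, and of -0.88 against 30 min. Both values share the 48 h arrays, so they are set side by side only. The median was 0.01 for the unfolded protein response, -0.04 for clock genes, -0.02 for cell cycle genes and 0.02 for lysosome genes. Cell cycle genes had 0.12, 0.12 and -0.30 in experiments 1, 2 and 3.

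**Figure D4:**
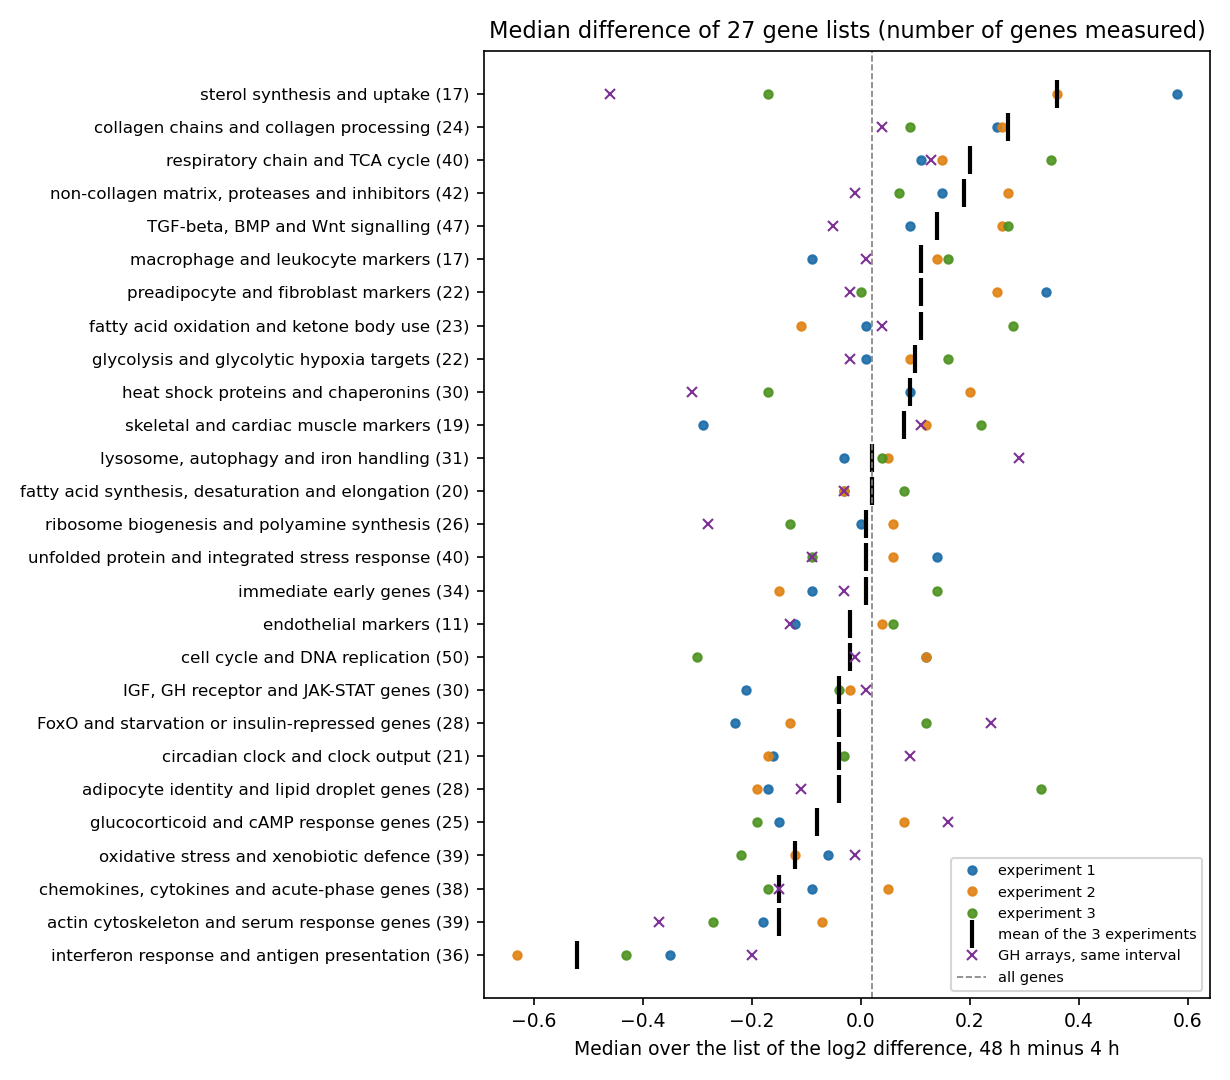
Median log2 difference, control 48 h minus 4 h, of 27 gene lists with the number of genes measured; coloured points are experiments 1, 2 and 3, black bars the median of the members' mean difference, crosses the same interval in GH arrays and the dashed line all genes at 0.02. The interferon list is lowest at -0.52, and the sterol list is highest at 0.36 with experiment 3 on the other side of 0.

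The same interval in the GH arrays of these experiments was set beside the control values, and no gene passed the test of a difference between them. GH is a pituitary hormone that acts on fat cells through JAK2 and STAT5, and the GH arrays are other samples of the same experiments. The difference between the control and the GH interval was past the adjusted threshold for 0 of 12422 probe sets (0%) in limma, with 1024 (8.24%) at an unadjusted p under 0.05, and for 13 with a mean-variance trend and robust fit. The count without experiment 3 was 128, and without the 3 arrays whose titles and descriptions disagree it was 57. The GH 4 h array of experiment 3 is among those 3 arrays, as is the control 48 h array of that experiment. Its description names another group than its title, and the title was followed here too. The test of the difference and all values of the GH interval given here therefore rest partly on an array of uncertain label. Within the GH arrays alone 155 probe sets passed between 4 h and 48 h (1.25%), 80 higher (0.644%) and 75 lower (0.604%). Of the 12 genes lower in controls, 7 fell in the GH arrays and 11 had a mean on the same side. Of the 12 higher, 1 rose and 8 were on the same side.

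Mt2, Mt1, Acta2, Acta1, Aldh1a1, Rgcc and Lxn were the 7 that fell with GH. Mt2 was at -1.83 with an adjusted p of 2.99e-04 in limma, Mt1 at -0.93 with 0.011, Acta2 at -1.71 with 0.0019 and Acta1 at -1.51 with 0.00589. Of the actin and serum response list 7 genes fell in the GH arrays, against 0.606% of all genes, and its median was -0.37. The members besides the 2 actins were Tpm4, Myl9, Tubb6, Anxa1 and Vcl. Mmp14 was the gene that rose, by 0.76 with an adjusted p of 0.00828.
Other values differed in size or sign without passing the test of the difference. Ifi27l2a was at 1.16 in controls and -0.04 with GH (adjusted p of the difference 0.184 in limma). Sox17 was at -1.67 and 0.70 (0.182), and Ebf2 at 0.69 and -0.36 (0.123). Of the sterol genes, Idi1 was at 0.77 in controls and fell with GH by 1.34 (0.116), and the list medians were 0.36 and -0.46. The interferon list had a median of -0.20 with GH, the collagen list 0.04 and the respiratory list 0.13.

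**Figure D5:**
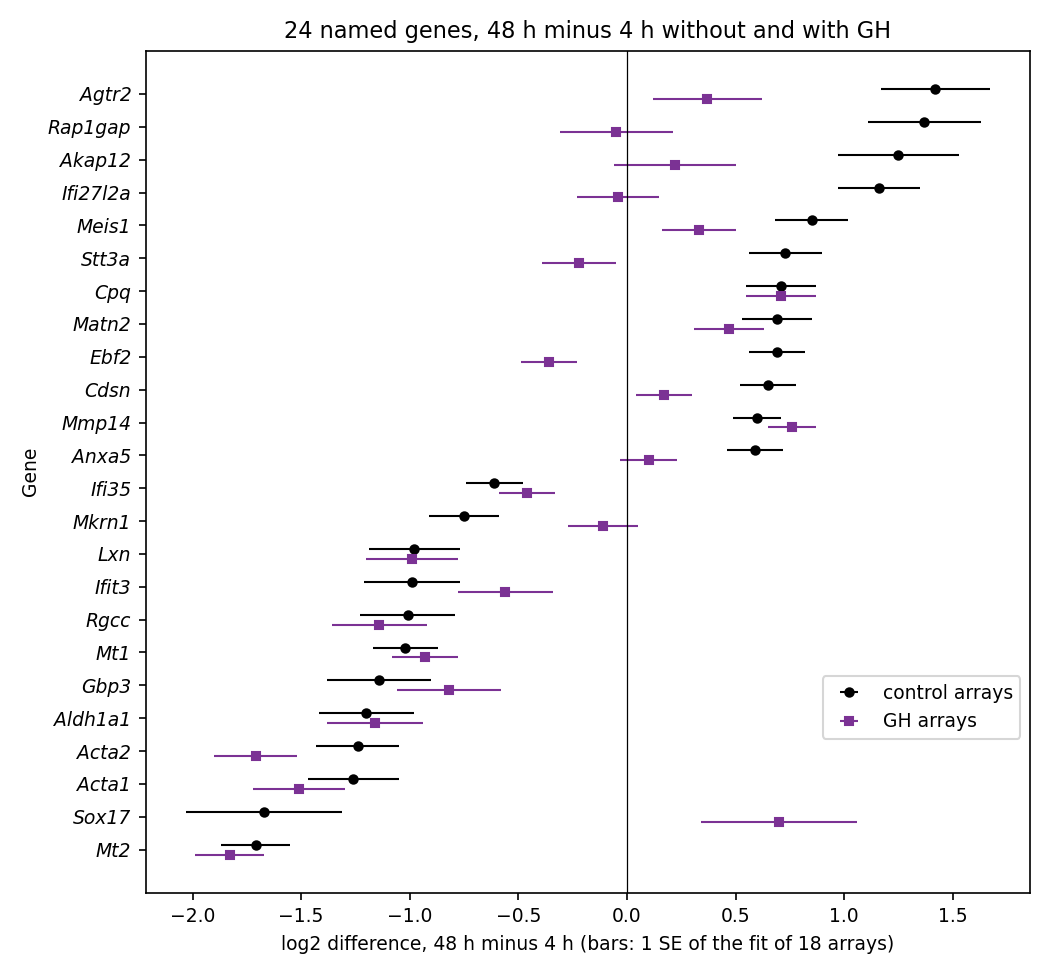
Log2 difference of 48 h minus 4 h for the 24 named genes in control arrays (black circles) and GH arrays (purple squares), with bars of 1 SE from the limma fit of 18 arrays. Lower genes such as Mt2, Mt1, Acta2 and Aldh1a1 lie on the same side in both, while Ifi27l2a, Rap1gap and Stt3a are above 0 in controls and at or below 0 with GH.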

How the data were processed

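RNA of 3T3-F442A cells was measured on Affymetrix MG_U74Av2 arrays. The deposited table gives a linear signal intensity per probe set and array; the summary method and software of the authors are not given in the sources used here. With 2% of probe sets trimmed from both tails, every array had a mean intensity of 500.3, so the deposited values had been scaled, and array medians on the log2 scale differed by 0.25, under the limit of 0.3 for a further normalization. Of 12488 probe sets, 66 manufacturer controls were left out. Of the 12422 tested, 10833 carry 1 gene symbol, 396 several and 1193 none, and 10817 matched a RefSeq gene by identifier; the brightest probe set stands for each of 8251 genes.

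Groups were taken from titles. Differences were fitted with limma 3.58.1 in R 4.3.3 on log2(signal + 25), with all 6 groups and the experiment as a block (10 residual degrees of freedom), and adjusted by Benjamini-Hochberg over the 12422 probe sets. Each difference is the mean of 3 within-experiment differences; GH and 30 min arrays enter only the spread and the block. A second contrast tested the control interval minus the GH interval. The pairing comes from the titles, and same-numbered arrays deviated together from their group means (r of 0.150, 0.125 and 0.279, against -0.185 to 0.077 for other numbers). Deviations within a group cancel by construction, so higher r for same numbers lowers r for other numbers, and these are not separate evidence. Array number limits the precision, and the files give no scan batch.

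The 12 genes named in each direction were those past the threshold by size, filled by lowest p, from probe sets with 1 symbol, the same sign in 3 of 3 experiments and a group mean above background. Each list also gives members past the threshold and the 3 largest differences. Other genes named were chosen after their values were seen, and the comparison and the 27 lists were chosen with earlier results of these data known. Alternatives were the block, pseudocounts of 10 and 100, quantile and median scaling, a filter on mean signal, a trend with robust moderation, left-out experiments, left-out arrays with conflicting labels, and fits to fewer arrays. Promoter windows are the 250 bases before RefSeq starts.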

Additional observations from a re-analysis of the deposited data

How the results depend on the processing

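The count of probe sets past the threshold for control 48 h minus 4 h, 1 in the reported fit, stayed at 1 with a pseudocount of 10. It was 0 without the replicate block that pairs the experiments, 0 with the 9 control arrays and the block, and 0 with the 6 compared arrays with or without the block. It was 8 with a pseudocount of 100, 5 after quantile normalization, 4 after median scaling, 13 with the low-signal filter, 11 with a trend and robust moderation, and 4 without the 3 arrays of conflicting labels. Leaving out 1 experiment gave 1 to 6. The cause was not tested, apart from the fewer arrays or probe sets that some of these fits hold by construction. The count for the difference between the control and GH intervals, 0 in the reported fit, was 1 without the replicate block, 12 with a pseudocount of 100, 14 with the low-signal filter, 13 with a trend and robust moderation, 57 without the arrays of conflicting labels, and 0 to 128 without 1 experiment, with 128 reached without experiment 3. Mt2 kept its direction in all 14 alternatives, between -1.86 and -1.53, and its call in 10. Of 1321 values of 95 genes under these alternatives, 4 changed sign: Lcn2, at -0.70 in the reported fit, was at 0.53 without experiment 3 and 0.31 without the arrays of conflicting labels, and Saa3, at -0.58, was at 0.14 and 0.04. Over the left-out experiments Lcn2 ran from -1.42 to 0.53 and Saa3 from -1.04 to 0.14. Signals near background limit what can be read from dim genes such as Sox17 and Agtr2.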

Other observations

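Other gene groups held members with differences that the text has not given, none past the adjusted threshold in limma. In the list of FoxO and insulin-repressed genes, Gadd45b, a stress-induced signalling gene, had 725, 624 and 142 at 4 h and 183, 215 and 23.2 at 48 h (log2 difference -1.69 ± 0.40, adjusted p 0.247 in limma). Angptl4, a secreted inhibitor of lipoprotein lipase, had 5958, 6768 and 1982 at 4 h and 1980, 2684 and 1926 at 48 h. Its difference of -0.98 came from experiments 1 and 2 and was -1.45 without experiment 3. The list's median was -0.04, with 6 lower and 2 higher of 28 at an unadjusted p under 0.05 (all genes 3.58% and 4.62%). Igfals, which encodes a carrier of IGF complexes, had 143, 275 and 754 at 4 h and 567, 548 and 1100 at 48 h. Its log2 difference was 1.09 (adjusted p 0.258 in limma). In the GH arrays Igfals rose by 2.08 (adjusted p 0.00459 in limma). As for every probe set, the difference between the control and GH intervals did not pass the test.

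Among TGF-beta, BMP and Wnt genes, 33 of 47 were higher and 14 lower, with a median of 0.14. Tgfb1, a growth factor that promotes matrix synthesis, had 215, 244 and 219 at 4 h and 120, 136 and 32.8 at 48 h, without overlap. Its log2 difference was -1.18 (adjusted p 0.558 in limma). It was -0.73 without experiment 3, whose 48 h signal lay below background. The Wnt ligand Wnt5a had 36, 29 and 63.6 at 4 h and 80.3, 85.2 and 135 at 48 h, also without overlap but near background. Sfrp2, a secreted Wnt modulator, had 634, 417 and 854 at 4 h and 1604, 1228 and 582 at 48 h, with experiment 3 in the other direction. Of the stress genes, Hspa1b, a heat shock chaperone, had 734, 954 and 891 at 4 h and 454, 595 and 588 at 48 h, and Xbp1, a factor of the unfolded protein response, had 4368, 5093 and 3962 at 4 h and 2833, 3336 and 2880 at 48 h. Neither pair of groups overlapped, and the adjusted p values were 0.286 and 0.39 in limma.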
